A study of Mus musculus with 12 samples.

Results

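The 10 genes described here are collagen and matrix genes used as markers of fibroblasts around brain vessels and in the meninges. They are Col1a1, Col1a2, Col3a1 and Col5a1 (chains of fibrillar collagens), Col6a1 and Col6a2 (chains of collagen VI), Dcn and Lum (small leucine-rich proteoglycans), Igf2 (a growth factor) and Slc6a13 (a transporter of GABA and taurine). They were chosen by name, with earlier results of these data known, from the 20347 gene entries of the count table. All 10 were in the table and passed the filter on low counts. Bulk RNA-seq had been made from brain hemispheres of 12-week-old male mice, without olfactory bulb and cerebellum. The left middle cerebral artery of every mouse was closed with a filament for 60 min and then reopened for 24 h. The 12 libraries form 4 groups of 3. These are the contralateral (not occluded) and the ipsilateral (stroke) hemispheres of wild-type (WT) mice, and the same of Lama4-/- mice, which lack the laminin alpha 4 chain of vessel basement membranes. The labels name no Cre line, strain or further allele, and since tissue of 2 mice was pooled for each library, a value averages over both. No hemisphere from an unoperated mouse was analysed here.

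Fibrillar collagens assemble from chains that wind into a triple helix, in which glycine is repeated with strict regularity. Type I collagen is built from chains of Col1a1 and Col1a2, type III from chains of Col3a1, and type V, of which Col5a1 is a chain, starts and limits the growth of fibrils. Collagen VI forms beaded filaments between cells and the interstitial matrix, and decorin (Dcn) and lumican (Lum) bind collagen fibrils and set their width. In the healthy brain such genes are largely restricted to fibroblasts of the meninges and of larger vessels, and fibroblasts make scar matrix after injury. Whole hemispheres do not tell which cells made a transcript, and in bulk tissue a change in the number of cells cannot be told apart from a change in RNA per cell.

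The repeat that defines the collagens is visible in their coding sequences, and is shown because it separates the fibrillar chains from the collagen VI chains. The longest unbroken run of triplets starting with a glycine codon (GGN) is 338 triplets in Col1a1, 339 in Col1a2, 344 in Col3a1 and 338 in Col5a1, but 87 in Col6a1 and also 87 in Col6a2. The 45 bases from the start of each run, read from the GENCODE transcripts of mm10, follow with the first codon of each triplet, a glycine codon, in capitals. Glycine codons at other places of a triplet stay in lower case, as in Col3a1.
Col1a1: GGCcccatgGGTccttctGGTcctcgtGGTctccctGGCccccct
Col1a2: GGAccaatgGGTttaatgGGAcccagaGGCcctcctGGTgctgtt
Col3a1: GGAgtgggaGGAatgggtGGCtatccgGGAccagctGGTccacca
Col5a1: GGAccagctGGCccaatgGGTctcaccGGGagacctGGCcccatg
Col6a1: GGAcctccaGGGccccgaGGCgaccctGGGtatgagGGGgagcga
Col6a2: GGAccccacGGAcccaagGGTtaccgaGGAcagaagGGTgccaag
The run takes up 69.8% of the codons of Col1a1, 74.1% of Col1a2, 70.5% of Col3a1, 55.2% of Col5a1, 25.5% of Col6a1 and 25.2% of Col6a2.

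The genes lie on 6 chromosomes, and 4 of the 10 share chromosome 10 with Lama4. In mm10 coordinates, Col1a1 is at chr11:94936224-94953042, Col1a2 at chr6:4504814-4541544, Col3a1 at chr1:45311538-45349706 and Col5a1 at chr2:27886425-28039514, all on the plus strand. Col6a1 (chr10:76708792-76726168) and Col6a2 (chr10:76595762-76623630) are neighbours on the minus strand, 85.2 kb apart. Dcn (chr10:97479609-97518143) and Lum (chr10:97565128-97572703) are neighbours on the plus strand, 47.0 kb apart. Igf2 lies at chr7:142650766-142666816 on the minus strand and Slc6a13 at chr6:121300227-121337733 on the plus strand. The nearest of these genes to Lama4 (chr10:38965515-39110188) is Col6a2, 37.5 Mb away.

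Libraries held 27537167 to 44113824 reads counted in genes, so that 1 CPM, the unit of level used below, stands for 27.5 to 44.1 reads, and the members had between 64 reads (Lum) and 4084 reads (Col6a1). The deleted gene, Lama4, had 9.18 ± 1.68 CPM in contralateral WT hemispheres against 0.286 ± 0.0705 CPM in Lama4-/- ones (SD, n = 3), and 14.7 ± 0.166 against 0.532 ± 0.291 CPM on the ipsilateral side. Over all libraries the summed level of 6 neuron markers was 4763 to 6444 CPM and that of 3 cerebellar granule cell markers 1.78 to 3.95 CPM (2 tested, 0 called for the stroke by edgeR, 1 at an unadjusted p under 0.05 in Lama4-/-), and no marker of any list was without reads in all libraries of a group. WT ipsilateral replicate 2 and Lama4-/- ipsilateral replicate 3 stood apart from the other libraries of their groups in several of these genes, and values without them are given where they move a result. Levels below are in CPM after TMM scaling over the 12 libraries, and changes are log2 fold changes from edgeR with their standard error (SE). Unless a block is named, the fits did not pair the hemispheres.

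In the hemisphere with the stroke, Col3a1, Dcn, Lum and Col1a1 were higher than in the contralateral hemisphere in both genotypes. Col1a2, the partner chain of Col1a1, was called in neither, nor were Igf2, Col6a1 and Col6a2. Col3a1 changed most, 2.21-fold in WT and 3.12-fold in Lama4-/-. In WT only the Col3a1 call held in all 12 fits that left out 1 library. The WT call of Lum held in 9 of them and those of Col1a1 and Dcn in 4 each. In Lama4-/- the calls of Col3a1, Dcn and Lum held in all 12 and that of Col1a1 in 5. Col5a1 and Slc6a13 were called lower in Lama4-/-, and no member was called for a difference between the genotypes in its stroke change. In WT, edgeR called 4 of the 10 members at an adjusted p under 0.05, all higher, where 15.4% of the 15351 genes tested were called (9.91% higher and 5.47% lower), and 6 members had an unadjusted p under 0.05, where 29.5% of all genes had. In Lama4-/- it called 6 of 10, 4 higher and 2 lower, where 23.3% of all genes were called (12.8% higher and 10.5% lower), and 8 members had an unadjusted p under 0.05, where 36.0% of all genes had. The median log2 change of the 10 members was 0.13 in WT and 0.14 in Lama4-/-, beside a median over all genes of 0.0053 and -0.0073. Because the members were chosen with earlier results of these data known, an excess over these shares is a description and not a test.

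**Figure D1:**
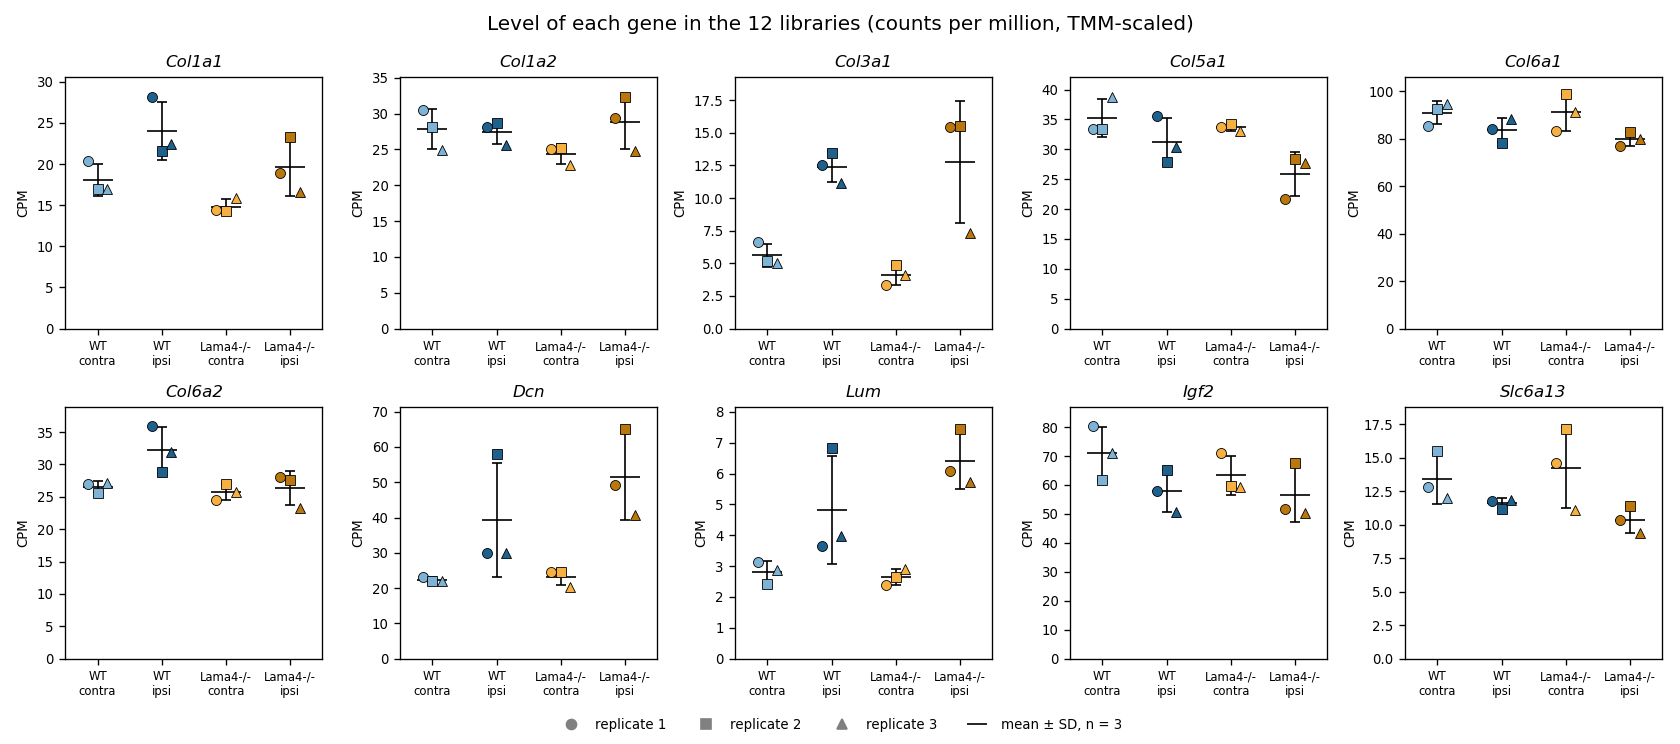
Level of each of the 10 genes in CPM (linear axis from 0) in the 12 libraries, by genotype and hemisphere, where symbols mark replicates and bars the mean ± SD of 3 libraries. The ipsilateral libraries lie above the contralateral ones without overlap for Col1a1, Col3a1, Dcn and Lum in both genotypes, and Col1a2 overlaps throughout.

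Col3a1, whose type III collagen is laid down early in wounds and scars, had the largest change of the members. In WT contralateral libraries it stood at 6.61, 5.20 and 5.04 CPM (replicates 1 to 3), and in WT ipsilateral libraries at 12.6, 13.5 and 11.1 CPM. In Lama4-/- it stood at 3.36, 4.90 and 4.08 CPM contralaterally and at 15.4, 15.6 and 7.35 CPM ipsilaterally. The groups of both sides did not overlap in either genotype, although Lama4-/- ipsilateral replicate 3 lay far below the other ipsilateral libraries. The log2 fold change was 1.14 ± 0.24 in WT (SE, edgeR adjusted p = 0.00785) and 1.64 ± 0.25 in Lama4-/- (adjusted p = 0.000648). Col3a1 was called in all 12 fits that left out 1 library, with a change of up to 1.28 in WT and of 1.48 to 1.92 in Lama4-/-. A predicted gene, Gm47302, overlaps Col3a1 on the same strand and shares 0.927% of its 50-base stretches.

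Col1a1, which gives most chains of type I collagen, rose in both genotypes by a smaller amount. It stood at 20.4, 17.0 and 16.9 CPM in WT contralateral and at 28.1, 21.6 and 22.4 CPM in WT ipsilateral libraries. The Lama4-/- values were 14.4, 14.2 and 15.9 CPM on the contralateral and 18.9, 23.3 and 16.6 CPM on the ipsilateral side. Neither pair of groups overlapped, but the lowest ipsilateral Lama4-/- library lay close above the highest contralateral one. The change was 0.41 ± 0.13 in WT (edgeR adjusted p = 0.0499) and 0.41 ± 0.13 in Lama4-/- (adjusted p = 0.0411). The WT call was lost with RLE scaling (adjusted p = 0.0558) and in voom (0.0518), and in 8 of 12 fits without 1 library, each except those without WT contralateral replicate 1, WT ipsilateral replicate 2 or Lama4-/- ipsilateral replicates 2 or 3 (change 0.28 to 0.51, highest adjusted p = 0.205). The Lama4-/- call was lost in voom (adjusted p = 0.0505), on the 6 Lama4-/- libraries alone (0.0543) and in 7 of 12 fits without 1 library, those without WT contralateral or ipsilateral replicate 3, any contralateral Lama4-/- library, or Lama4-/- ipsilateral replicates 1 or 2 (highest adjusted p = 0.172).

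Col1a2, which gives the other chain of type I collagen, was close to level between the hemispheres. WT contralateral libraries held 30.4, 28.1 and 24.8 CPM and WT ipsilateral libraries 28.2, 28.6 and 25.5 CPM, ranges that overlap almost fully. In Lama4-/- it stood at 25.1, 25.3 and 22.8 CPM contralaterally and at 29.4, 32.3 and 24.7 CPM ipsilaterally. Replicate 3 was again the lowest ipsilateral library, and here it fell within the contralateral range. Its change was -0.02 ± 0.10 in WT (95% interval from the SE -0.22 to 0.18) and 0.24 ± 0.10 in Lama4-/- (edgeR adjusted p = 0.941 and 0.101). With the pool of mice as a block Col1a2 was called in Lama4-/- (edgeR adjusted p = 0.0227), and likewise without Lama4-/- ipsilateral replicate 3 (0.0216, change 0.35). Same-numbered hemispheres of a genotype were taken as the same pool, which the labels do not state.

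The ratio of the counts of 2 chains within a library does not depend on the scaling. In WT the ratio of Col1a1 to Col1a2 was 0.651 ± 0.0417 contralaterally and 0.878 ± 0.122 ipsilaterally (SD, n = 3), with no overlap. In Lama4-/- it was 0.611 ± 0.0738 and 0.678 ± 0.0404, and the ranges overlapped. The ratio of Col3a1 to Col1a2 went from 0.202 ± 0.0163 to 0.451 ± 0.0176 in WT and from 0.169 ± 0.0313 to 0.434 ± 0.121 in Lama4-/-, without overlap in either. No test was run on the ratios, and a ratio cannot tell which of its genes moved.

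**Figure D2:**
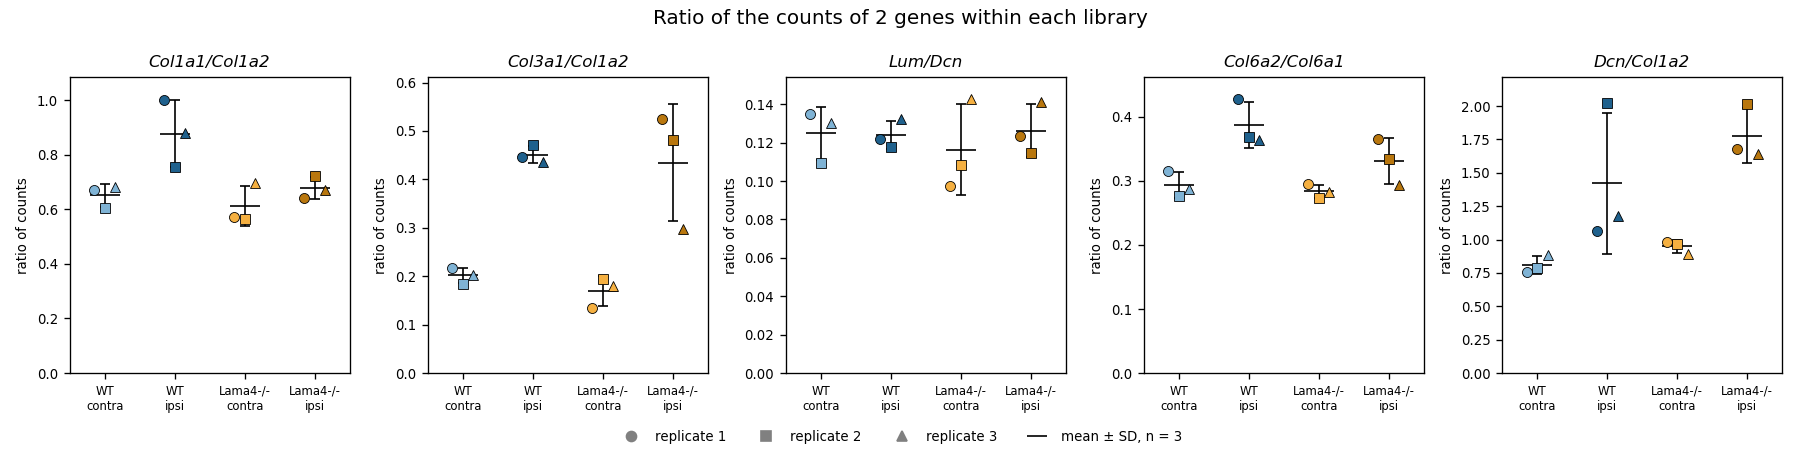
Ratio of the counts of gene pairs within each library (linear axis from 0), by genotype and hemisphere, where symbols mark replicates and bars the mean ± SD of 3 libraries. Lum/Dcn lies between 0.0973 and 0.143 in all 12 libraries, while Col3a1/Col1a2 is higher in every ipsilateral library than in any contralateral one.

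Col5a1 encodes the alpha 1 chain of type V collagen and moved the other way from Col3a1. Its WT levels were 33.4, 33.3 and 38.8 CPM contralaterally and 35.7, 27.8 and 30.4 CPM ipsilaterally, which overlap. In Lama4-/- the contralateral libraries held 33.8, 34.3 and 33.1 CPM and the ipsilateral ones 21.7, 28.4 and 27.7 CPM, all below. The change was -0.17 ± 0.11 in WT (edgeR adjusted p = 0.337) and -0.38 ± 0.11 in Lama4-/- (adjusted p = 0.0251). That call was lost without any 1 of the contralateral Lama4-/- libraries (adjusted p of up to 0.0658) and without Lama4-/- ipsilateral replicate 1 (-0.26, adjusted p = 0.111). Antisense genes overlap Col5a1, with which it shares 1.41% of its 50-base stretches, and the strand setting of the counts is not given in the sources used here.

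The promoters of Col1a2 and Col3a1 are shown because Col3a1 was called for the stroke in both genotypes and Col1a2, another fibrillar chain, in neither. RefSeq (GRCm38.p6) gave a promoter for 7 of the 10 members, not for Col1a1, Dcn or Lum. The 250 bases before the RefSeq start follow 5′ to 3′, from chr6:4505368-4505617 (plus strand) for Col1a2, a start that lies within the GENCODE gene, and from chr1:45311288-45311537 (plus strand) for Col3a1.
Col1a2: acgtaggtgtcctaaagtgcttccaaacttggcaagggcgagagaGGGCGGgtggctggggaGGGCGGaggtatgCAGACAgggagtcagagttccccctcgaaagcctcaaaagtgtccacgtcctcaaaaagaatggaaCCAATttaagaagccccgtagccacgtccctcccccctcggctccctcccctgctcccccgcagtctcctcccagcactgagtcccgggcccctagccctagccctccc
Col3a1: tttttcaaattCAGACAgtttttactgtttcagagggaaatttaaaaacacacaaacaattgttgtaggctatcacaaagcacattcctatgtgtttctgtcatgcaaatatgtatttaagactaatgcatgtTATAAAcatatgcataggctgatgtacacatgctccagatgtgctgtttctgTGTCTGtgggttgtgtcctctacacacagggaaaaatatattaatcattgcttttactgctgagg
Capitals mark 5 motifs that were searched on both strands. The CCAAT box is CCAAT in letters and is held by 33.8% of 32851 promoters of the same length, and the TATA box is TATAAA and is held by 12.4%. The GC box of Sp1 was taken as GGGCGG (32.7% of promoters), the AP-1 site as TGANTCA (6.75%) and the CAGA box of Smad proteins as CAGACA (17.1%). The Col1a2 window holds the GC box at 2 places and the CCAAT and CAGA boxes at 1 place each. The Col3a1 window holds the TATA box at 1 place and the CAGA box at 2, of which 1 is on the minus strand. No marked motifs overlap in the windows printed. A match is a description of the letters and not a bound site.

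Col6a1, the collagen VI alpha 1 chain, was slightly lower on the stroke side in both genotypes. It stood at 85.4, 92.6 and 94.7 CPM contralaterally and 84.1, 78.2 and 88.1 CPM ipsilaterally in WT, which overlap. The Lama4-/- libraries held 83.1, 98.6 and 91.2 CPM and 77.0, 82.7 and 79.7 CPM, without overlap. The changes were -0.12 ± 0.07 (edgeR adjusted p = 0.298) and -0.19 ± 0.07 (adjusted p = 0.0852). With the pool as a block the Lama4-/- value was called (-0.18, adjusted p = 0.0377), and it was also called without Lama4-/- contralateral replicate 1 (-0.25, adjusted p = 0.0294).

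Col6a2, its partner chain from the neighbouring gene, had the opposite sign in WT. WT libraries held 27.0, 25.6 and 27.2 CPM contralaterally and 36.0, 28.9 and 32.0 CPM ipsilaterally, with no overlap. In Lama4-/- they held 24.5, 27.0 and 25.7 CPM and 28.1, 27.7 and 23.3 CPM, with replicate 3 of the ipsilateral side lowest of all. The change was 0.28 ± 0.09 in WT (edgeR adjusted p = 0.0552) and 0.04 ± 0.09 in Lama4-/- (adjusted p = 0.798). In WT it was called when pools were a block (adjusted p = 0.0297), in DESeq2 (adjusted p = 0.0409), without WT ipsilateral replicate 2 (0.0312) and without Lama4-/- ipsilateral replicate 3 (0.0399). The ratio of Col6a2 to Col6a1 was 0.293 ± 0.0202 contralaterally and 0.387 ± 0.0358 ipsilaterally in WT, without overlap, and 0.284 ± 0.0107 and 0.331 ± 0.0362 in Lama4-/-, with overlap (SD, n = 3).

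Dcn, which encodes decorin, a proteoglycan that coats collagen fibrils and binds TGF-beta, rose in both genotypes. Its contralateral levels were tight, at 23.1, 22.1 and 22.0 CPM in WT and 24.6, 24.5 and 20.4 CPM in Lama4-/-. WT ipsilateral libraries held 29.9, 58.1 and 30.0 CPM, and Lama4-/- ipsilateral libraries 49.2, 65.0 and 40.6 CPM. All ipsilateral libraries lay above the contralateral ones of their genotype, and replicate 2 was the highest of each ipsilateral group. The change was 0.81 ± 0.24 in WT (edgeR adjusted p = 0.0459) and 1.16 ± 0.24 in Lama4-/- (adjusted p = 0.00608).

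The WT call of Dcn depends on the other libraries of the fit. Without WT ipsilateral replicate 2 the change was 0.42 (edgeR adjusted p = 0.107). It was also lost without any 1 of the contralateral libraries of either genotype or Lama4-/- ipsilateral replicate 1, with adjusted p of 0.0569 to 0.128 and a change of 0.80 to 0.83, and in voom (adjusted p = 0.0521), without a filter (0.0726) and on the WT libraries alone (0.0883). With the pool as a block it was called (0.73 ± 0.20, adjusted p = 0.0358). In Lama4-/- Dcn was called in all 12 fits without 1 library, with a change of 0.96 to 1.31.

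Lum, which encodes lumican, another proteoglycan of collagen fibrils, followed its neighbour Dcn. It stood at 3.12, 2.41 and 2.87 CPM in WT contralateral and 3.64, 6.84 and 3.97 CPM in WT ipsilateral libraries. Lama4-/- libraries held 2.39, 2.66 and 2.91 CPM contralaterally and 6.07, 7.43 and 5.73 CPM ipsilaterally, far apart. The change was 0.77 ± 0.22 in WT (edgeR adjusted p = 0.0300) and 1.28 ± 0.22 in Lama4-/- (adjusted p = 0.00107). The WT call was lost without WT ipsilateral replicate 2 (0.43, adjusted p = 0.131), without WT contralateral replicates 2 or 3 (0.101 and 0.0863), in voom (0.0554) and on the WT libraries alone (0.0620), while the Lama4-/- call held in all 12 fits without 1 library (1.16 to 1.36). The ratio of Lum to Dcn counts was 0.125 ± 0.0137 and 0.124 ± 0.00754 in WT and 0.116 ± 0.0237 and 0.126 ± 0.0136 in Lama4-/- (contralateral and ipsilateral, SD, n = 3), with overlap throughout.

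Markers of other cells went in different directions. Of all genes, edgeR called 15.4% in WT (9.91% higher and 5.47% lower) and 23.3% in Lama4-/- (12.8% higher and 10.5% lower), to be read beside the counts here. Ttr, the transthyretin gene of the choroid plexus, stood at 386, 593 and 376 CPM in WT ipsilateral and 530, 728 and 583 CPM in Lama4-/- ipsilateral libraries, so that in both ipsilateral groups the library with the most Dcn had the most Ttr. On the contralateral side Ttr stood at 465, 486 and 605 CPM in WT and 602, 809 and 521 CPM in Lama4-/- libraries. There the library with the most Dcn was replicate 1 and did not have the most Ttr. Its lead was small, 23.1 against 22.1 CPM for replicate 2 in WT and 24.6 against 24.5 CPM in Lama4-/-, so that ranking says little. Over 10 choroid plexus markers the summed level was 558 to 701 CPM in WT contralateral, 432 to 664 in WT ipsilateral, 600 to 905 in Lama4-/- contralateral and 591 to 819 in Lama4-/- ipsilateral libraries. Their sums, which are mostly Ttr, thus overlapped between the hemispheres, and 2 of 10 fell in WT and 0 of 10 were called in Lama4-/-. The median log2 change of the 10 was -0.51 in WT and -0.12 in Lama4-/-, with 1 positive in each. In WT 6 of them had an unadjusted edgeR p under 0.05, and in Lama4-/- 2 had. The 8 markers of border macrophages, which share the perivascular space and the meninges with fibroblasts, summed to 39.7 to 43.5 CPM in WT contralateral, 74.7 to 104 in WT ipsilateral, 39.0 to 42.0 in Lama4-/- contralateral and 70.9 to 98.7 in Lama4-/- ipsilateral libraries. Of these markers 5 rose in each genotype. The 8 endothelial markers summed to 172 to 202, 219 to 298, 173 to 222 and 260 to 364 CPM in the same order, and 3 rose in WT and 4 in Lama4-/-. The 6 neuron markers summed to 6029 to 6444, 5306 to 5466, 5809 to 6382 and 4763 to 5744 CPM in that order, lower without overlap on the stroke side in both genotypes, and 2 fell in WT and 3 in Lama4-/-. The 4 astrocyte markers summed to 2831 to 3177, 2302 to 2489, 2674 to 2904 and 2075 to 2491 CPM, also lower without overlap. These sums are mostly Slc1a2, which fell in both genotypes, and of the 4 markers 1 rose and 2 fell in WT and 1 rose and 1 fell in Lama4-/-. Of 4 oligodendrocyte markers, edgeR called 0 in either genotype, with 0 at an unadjusted p under 0.05 in both, and their sums overlapped. The part of these cells in the changes of the members was not tested.

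Igf2, an imprinted growth factor of the insulin family made in the adult brain by meninges and choroid plexus, had overlapping hemispheres in both genotypes. WT libraries held 80.3, 61.9 and 70.9 CPM contralaterally and 57.9, 65.2 and 50.8 CPM ipsilaterally. In Lama4-/- it stood at 71.0, 59.7 and 59.3 CPM and 51.7, 67.6 and 50.4 CPM. The change was -0.29 ± 0.13 in WT (edgeR adjusted p = 0.156) and -0.16 ± 0.13 in Lama4-/- (adjusted p = 0.414). Igf2 counts are uncertain, because 62.1% of its 50-base stretches also occur in transcripts of Gm49394 or the antisense gene Igf2os, which have no entry of their own in the count table.

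Slc6a13, a GABA and taurine transporter (GAT2) of leptomeningeal cells, was lower on the stroke side. It stood at 12.8, 15.5 and 12.0 CPM in WT contralateral and 11.8, 11.2 and 11.8 CPM in WT ipsilateral libraries, all below. Lama4-/- libraries held 14.6, 17.1 and 11.1 CPM contralaterally and 10.3, 11.4 and 9.37 CPM ipsilaterally, which overlap because of contralateral replicate 3. The change was -0.20 ± 0.14 in WT (edgeR adjusted p = 0.374) and -0.46 ± 0.14 in Lama4-/- (adjusted p = 0.0322). The Lama4-/- call was lost on the 6 Lama4-/- libraries alone (adjusted p = 0.0682) and without Lama4-/- contralateral replicates 1 or 2 (0.0684 and 0.151) or ipsilateral replicates 1 or 3 (0.0894 and 0.101), with changes of -0.46 to -0.31, and without both libraries that stood apart (0.121). It shares 0.14% of its 50-base stretches with Slc6a12, a related transporter.

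**Figure D3:**
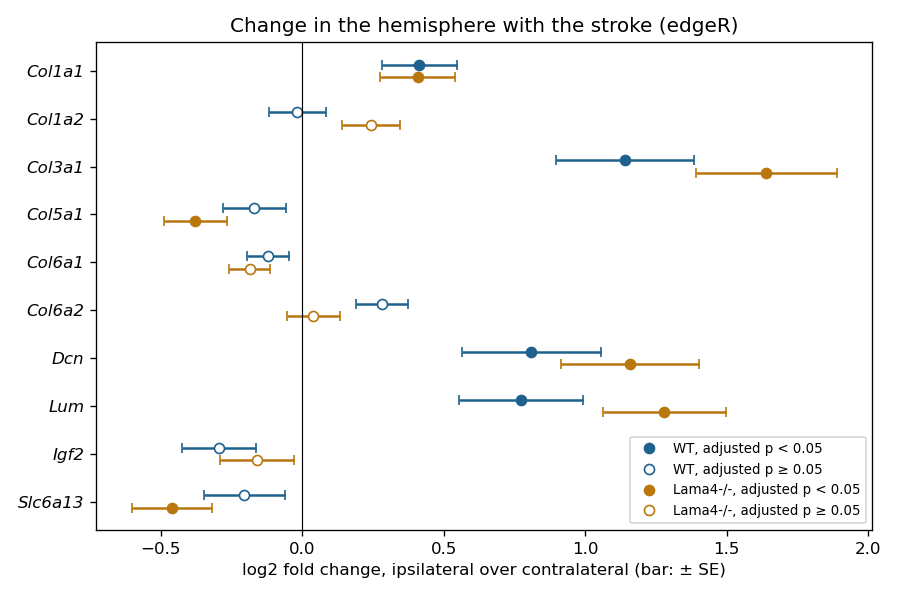
Log2 fold change of the ipsilateral over the contralateral hemisphere for each gene in WT and Lama4-/-, with bars of ± 1 SE; filled points have an edgeR adjusted p under 0.05. Col3a1, Dcn, Lum and Col1a1 are filled on the right in both genotypes, and Col5a1 and Slc6a13 are filled on the left in Lama4-/-.

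In WT, 6 members did not overlap between the hemispheres (5 higher and 1 lower), where 38.5% of all genes did not (21.1% higher and 17.5% lower). In Lama4-/- 6 members did not overlap (4 higher and 2 lower), where 35.6% of all genes did not (17.5% higher and 18.1% lower). The count of members called in WT depended on single libraries. It was 1 (Col3a1) without WT contralateral replicates 2 or 3, 2 without any 1 of the contralateral Lama4-/- libraries or Lama4-/- ipsilateral replicate 1, and 5 without Lama4-/- ipsilateral replicate 3. With the pool as a block it was 5, and without both WT ipsilateral replicate 2 and Lama4-/- ipsilateral replicate 3 it was 4. In Lama4-/- the count was 3 without contralateral replicate 2 or ipsilateral replicate 1, 8 with the pool as a block, and 6 without both libraries that stood apart. Without those libraries, Col1a1, Col3a1, Col6a2 and Dcn were called in WT, and Col1a1, Col1a2, Col3a1, Col5a1, Dcn and Lum in Lama4-/-.

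Whether the stroke changed these genes differently in Lama4-/- than in WT was tested with the interaction of genotype and hemisphere. It called 0 of 10 members, where 0 of 15351 genes (0.0%) were called by edgeR and also 0 by DESeq2 and voom, and 244 genes (1.59%) but no member had an unadjusted p under 0.05. The difference, Lama4-/- minus WT, was 0.50 ± 0.35 for Col3a1 (95% interval from the SE -0.18 to 1.18), 0.51 ± 0.31 for Lum (-0.10 to 1.11) and 0.35 ± 0.34 for Dcn (-0.32 to 1.02). For Col1a2 it was 0.26 ± 0.14 (-0.02 to 0.54) and for Col1a1 -0.01 ± 0.19 (-0.37 to 0.36). Col6a2 had -0.24 ± 0.13 (-0.50 to 0.01), Slc6a13 -0.26 ± 0.20 (-0.65 to 0.14) and Col5a1 -0.21 ± 0.16 (-0.51 to 0.10). Col6a1 and Igf2 had -0.06 ± 0.10 (-0.27 to 0.14) and 0.13 ± 0.19 (-0.23 to 0.50). These intervals leave room for differences as large as the WT stroke changes themselves for every member except Col1a1. For Col1a1 the interval stops just short of its WT change of 0.41. Intervals from the SE, here and above, use a normal quantile, which makes them somewhat too narrow with so few libraries. Without WT ipsilateral replicate 2 and Lama4-/- ipsilateral replicate 3, a choice made after the data were seen that by its construction widens the gap between the genotypes, the difference was 0.92 ± 0.16 for Dcn and 0.95 ± 0.24 for Lum (edgeR adjusted p = 0.131 and 0.380). In the same fit Col3a1 had 0.87 ± 0.22 and Col1a2 0.42 ± 0.14 (adjusted p = 0.423 and 0.676), so that 4 members had an unadjusted p under 0.05, and still 0 were called. Over the fits without 1 library, the difference ran from 0.15 to 0.74 for Dcn, from 0.34 to 0.84 for Lum and from 0.34 to 0.78 for Col3a1, with 0 members called.

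To compare the genotypes in the hemisphere that was not occluded, the 6 contralateral libraries of these operated mice were set against each other. edgeR called 0 of 10 members, and 2 of 14958 genes (0.0134%), and 2 members, Col1a1 and Col3a1, had an unadjusted p under 0.05, where 9.51% of all genes had. Both were lower in every Lama4-/- library than in any WT library, where 15.9% of all genes did not overlap (8.53% higher and 7.38% lower). The mean of Col1a1 was 14.8 CPM in Lama4-/- against 18.1 CPM for WT, a change of -0.30 ± 0.10 (edgeR adjusted p = 0.510). Col3a1 had 4.11 ± 0.773 and 5.62 ± 0.865 CPM, a change of -0.46 ± 0.17 (adjusted p = 0.510). Col1a2 had -0.20 ± 0.09, Igf2 -0.18 ± 0.11 and Lum -0.10 ± 0.16, and the other members lay between -0.07 and 0.09. In the authors' deposited table the contralateral log2 fold change was -0.30 for Col1a1 (adjusted p = 0.408) and -0.46 for Col3a1 (adjusted p = 0.449).

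In the ipsilateral hemispheres the genotypes were compared in the same way. Again edgeR called 0 of 10 members, where 1 of 15208 genes (0.00658%) was called, and 1 member, Col6a2, had an unadjusted p under 0.05, where 3.49% of all genes had. Its mean level was 26.4 ± 2.64 CPM in Lama4-/- against 32.3 ± 3.57 CPM for WT (SD, n = 3), a change of -0.29 ± 0.11 (edgeR adjusted p = 0.989). It was the only member whose Lama4-/- libraries all lay below the WT ones, where 8.06% of all genes did not overlap (3.77% higher and 4.29% lower). Col1a1 had -0.30 ± 0.14 and Col5a1 -0.27 ± 0.13, while Dcn and Lum had 0.40 ± 0.31 and 0.42 ± 0.24, with overlapping libraries. Without WT ipsilateral replicate 2, Dcn had 0.78 ± 0.18 and Lum 0.75 ± 0.17 (edgeR adjusted p = 0.466 and 0.411), and 5 members had an unadjusted p under 0.05, but again 0 were called. In the authors' deposited table the ipsilateral log2 fold change of Col6a2 was -0.28 (p = 0.00474, adjusted p = 0.970). Both genotype comparisons share libraries with the stroke comparisons above.

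Among libraries of the same group the members did not all vary together. Dcn and Lum lay furthest above their group mean in the same library, WT ipsilateral replicate 2, by 0.64 and 0.56 on the log2 scale, where Col1a1, Col5a1 and Col6a2 lay below theirs by 0.14, 0.16 and 0.16. In Lama4-/- ipsilateral replicate 3, Col3a1 lay 0.71 below its group mean and Col1a1, Col1a2 and Dcn 0.23, 0.21 and 0.32 below, whereas Col5a1 lay 0.10 above. The genes whose deviations over the 12 libraries were most like those of the members, by the mean Pearson r over the 10 of them, were Nfatc1 (0.50), Zfp217, Ptpn14, Ifi27, 2410004P03Rik, Lamb2, Epb41l4a, Jak3, Scarf1 and Esyt1 (0.47), of 13138 genes ranked, with the 99th percentile at 0.40. Same-numbered hemispheres may share a pool, and the likeness is a description.

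**Figure D4:**
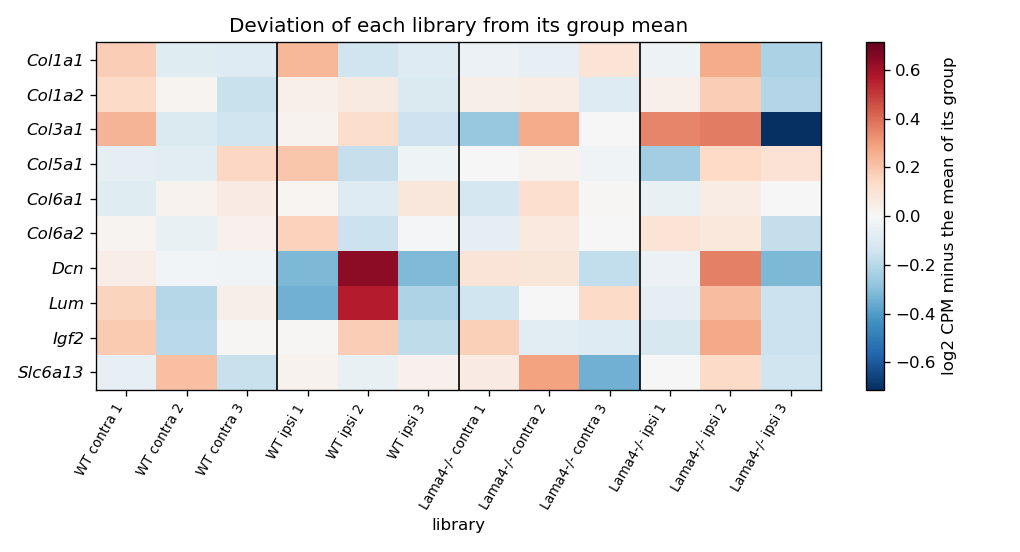
Deviation of each library from the mean of its group, in log2 CPM, for the 10 genes (rows) and 12 libraries (columns, groups parted by lines); red is above and blue below the group mean. WT ipsilateral replicate 2 is darkest red for Dcn and Lum, and Lama4-/- ipsilateral replicate 3 darkest blue for Col3a1.

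Other genes of collagen matrix were read from lists by role, beside the background shares given above. The lists too were chosen with earlier results of these data known, so their counts are a description. Of 15 other collagen chains, 3 rose and 1 fell in WT, and 3 rose and 2 fell in Lama4-/-. Col2a1, the chain of cartilage collagen, rose by 1.25 ± 0.23 in both (edgeR adjusted p = 0.00297 and 0.00175), from 2.39 ± 0.408 to 5.64 ± 0.382 CPM in WT (SD, n = 3). Col5a3, another chain of type V collagen, rose by 1.12 ± 0.14 and 0.73 ± 0.14 (adjusted p = 0.000147 and 0.00189). Col11a2, a chain of type XI collagen, fell by 0.60 ± 0.16 in Lama4-/- (adjusted p = 0.0141). In WT it went from 26.2 ± 1.52 to 18.7 ± 2.97 CPM (SD, n = 3). The median of the list was -0.04 in WT and 0.11 in Lama4-/-.

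Of 27 genes that fold, modify and crosslink collagen, 10 rose in each genotype, and 2 fell in WT and 1 in Lama4-/-. Serpinh1, the collagen chaperone HSP47, reached 35.3 ± 2.16 CPM in WT ipsilateral libraries and went from 12.7 ± 2.20 to 41.5 ± 0.421 CPM in Lama4-/- (SD, n = 3). Its change was 1.33 ± 0.18 and 1.71 ± 0.18 (edgeR adjusted p = 0.000345 and 4.52e-05). P4ha3, a subunit of prolyl hydroxylase, rose by 1.48 ± 0.19 and 1.03 ± 0.18, and Loxl1, a lysyl oxidase that crosslinks fibres, by 1.40 ± 0.23 and 1.19 ± 0.23 (adjusted p at most 0.00243). The list median was 0.23 in both genotypes.

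Of 19 other leucine-rich proteoglycans and fibril-associated proteins, 4 rose and 3 fell in WT, and 6 rose and 3 fell in Lama4-/-. Within the proteoglycans the directions were mixed. Bgn, biglycan, the closest relative of Dcn, rose by 0.49 ± 0.14 in WT and 0.67 ± 0.14 in Lama4-/- (edgeR adjusted p = 0.0328 and 0.00469), the WT call being lost in 5 fits with libraries left out. Fmod, fibromodulin, the relative of Lum, fell by 0.58 ± 0.12 and 0.78 ± 0.12 (adjusted p = 0.00568 and 0.000606). Fn1, fibronectin, and Postn, periostin, rose in Lama4-/- by 0.73 ± 0.10 and 0.81 ± 0.17. In WT, Fn1 went from 120 ± 12.7 to 151 ± 10.9 CPM and Postn from 4.05 ± 0.468 to 5.54 ± 1.23 CPM (SD, n = 3).

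Of 12 tested genes of the insulin-like growth factor axis around Igf2, 5 rose in WT and 6 in Lama4-/-, and none fell by call. Igf2bp2, which binds Igf2 mRNA, rose by 1.71 ± 0.31 and 2.15 ± 0.31 (edgeR adjusted p = 0.00234 and 0.000352), and Igfbp7, a secreted binding protein of vessels, by 1.25 ± 0.21 in WT, and was called in Lama4-/- too. Igfbp3, a carrier of IGFs in blood, rose by 1.81 ± 0.41 in Lama4-/- (adjusted p = 0.0114). In WT it went from 18.8 ± 2.79 to 41.4 ± 21.5 CPM (SD, n = 3).

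Of 24 other fibroblast and meningeal markers, 2 rose and 1 fell in WT, and 5 rose and 3 fell in Lama4-/-. Aldh1a2, which makes retinoic acid in meninges, went from 14.2 ± 1.24 to 36.8 ± 10.7 CPM in WT and from 15.3 ± 1.97 to 44.9 ± 10.8 CPM in Lama4-/- (SD, n = 3; edgeR adjusted p = 0.00113 and 0.000336). Emp1, a membrane protein found in other cells too, rose by 3.22 ± 0.41 and 3.65 ± 0.43. Lamc3 was lower in WT (-0.51 ± 0.16, edgeR adjusted p = 0.0432), and in Lama4-/- it went from 9.59 ± 1.08 to 7.02 ± 1.30 CPM. The list median was 0.11 in WT and -0.05 in Lama4-/-, and 14 and 10 of the 24 markers had a positive change. The summed level of the 24 markers was 935 to 1009 CPM in WT contralateral, 892 to 1003 in WT ipsilateral, 1005 to 1118 in Lama4-/- contralateral and 899 to 980 CPM in Lama4-/- ipsilateral libraries, lower without overlap on the stroke side in Lama4-/-. A sum follows its most abundant genes, which other cells may express too, so it does not show that most of the 24 markers fell.

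Of 21 genes of fibrosis signalling and myofibroblasts, 7 rose in WT and 10 in Lama4-/-, with none lower by call. Timp1, an inhibitor of matrix proteases, went from 2.46 ± 1.14 to 15.7 ± 5.10 CPM in WT and from 1.77 ± 0.406 to 20.5 ± 9.50 CPM in Lama4-/- (SD, n = 3). Tgfb1, the main inducer of collagen genes, rose by 1.14 ± 0.16 and 1.19 ± 0.15, and Ddr2, a receptor for fibrillar collagen, by 0.84 ± 0.09 and 1.10 ± 0.09 (edgeR adjusted p at most 0.000341). Between the genotypes and in the interaction, edgeR called 0 genes of any of these lists.

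**Figure D5:**
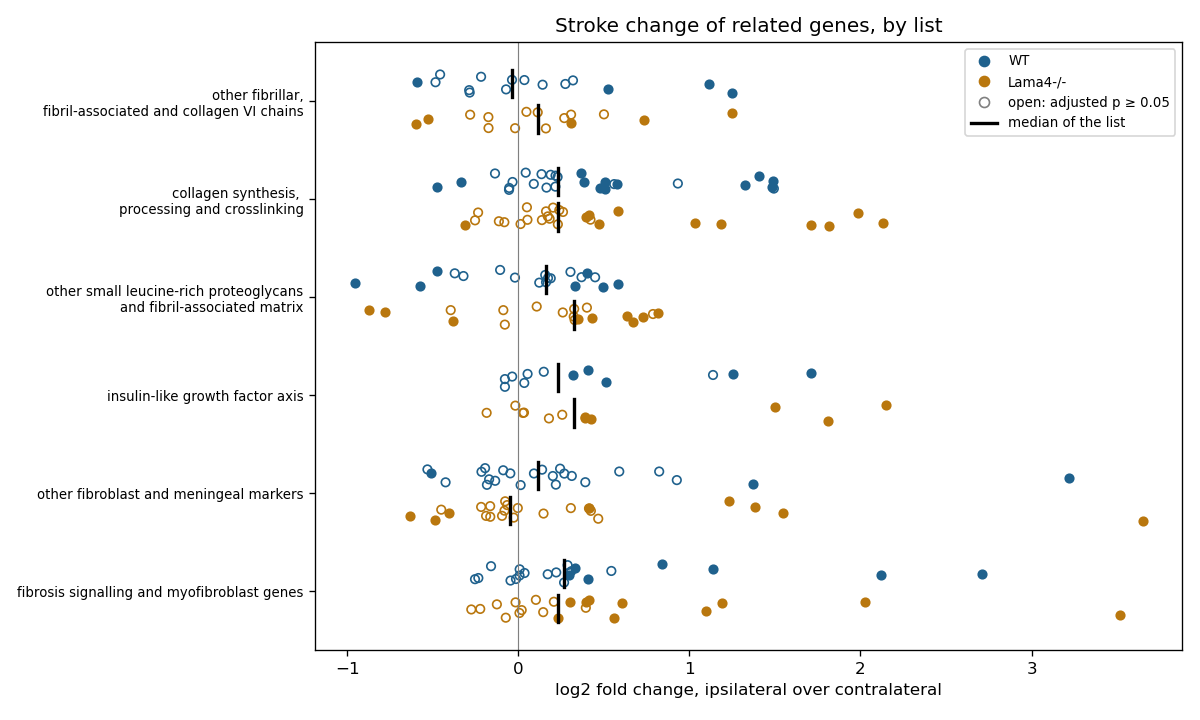
Log2 fold change of the ipsilateral over the contralateral hemisphere for the genes of 6 lists related to the members (points, WT and Lama4-/-; filled where the edgeR adjusted p is under 0.05), with the median of each list as a black bar. Medians lie between -0.05 and 0.33, while single genes such as Emp1 and Timp1 lie beyond 2.

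In mural cells, which also lie around vessels, the lists moved in both directions. Of 10 pericyte markers 1 rose and 1 fell in WT, and 2 rose and 3 fell in Lama4-/-, and their sums of 189 to 193 CPM (WT contralateral) and 185 to 197 CPM (WT ipsilateral) overlapped. Of 8 smooth muscle markers 1 rose and 1 fell in each genotype, with sums of 30.2 to 40.1 CPM over all 12 libraries.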

How the data were processed

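STAR 2.6.0, featureCounts 1.6.4, FastQC 0.72, bcl2fastq, DESeq2 and build mm10 stand in the submitters' processing notes; for annotation and strandedness the sources used here give nothing. A 3′ kit meant for single cells stands in the labels' protocols beside bulk polyA RNA, so levels were not compared between genes. The authors deposited raw counts, one whole number for each gene in each library. The deposited tables of the authors also hold log2 fold changes, p-values and adjusted p-values per hemisphere, quoted where named; 48 further columns per sample were not used. Groups came from the labels. The tests used edgeR 4.0.16 (TMM, filterByExpr, robust quasi-likelihood F test, Benjamini-Hochberg over all genes) in R 4.3.3, on 12 libraries for stroke changes and interaction and on 6 for genotype. DESeq2 1.42.0, limma voom 3.58.1, other filters, RLE scaling, blocks and left-out libraries were alternatives. The code was tested on simulated counts. Same-numbered hemispheres of a genotype deviated together in 6 of 6 pairs (r = 0.11 to 0.33) and were taken as one pool, although the labels do not state this. The main tests did not pair the hemispheres of a pool. Their p-values measure the spread between libraries of a group, each from 2 mice, and not the spread of the change within a pool. Members and lists were chosen with earlier results of these data known. Named genes were all members, Lama4, up to 4 called genes of largest change per list with a mean log2 CPM of at least 1, and the 10 genes of closest deviation. Sequences came from GENCODE M21 transcripts and RefSeq (GRCm38.p6). The result for 1 list of related genes is not reported here.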

Additional observations from a re-analysis of the deposited data

How the results depend on the processing

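Over all genes, the number called for the stroke in WT was 2361, 3608 with the pool as a replicate block, and 1347 to 2679 without 1 library. For the stroke in Lama4-/- it was 3580, and 2286 to 3618 without 1 library. The interaction called 0 genes, and 0 or 1 without libraries. The contralateral genotype comparison called 2 genes, 17 in DESeq2, 1 in voom, 121 with the replicate number as a block and 1 to 9 without 1 library. The ipsilateral one called 1, 3 on all 12 libraries, 22 in DESeq2, 4 with the replicate number as a block and 1 to 5 without 1 library. Outside these block fits, replicate numbers shared by pools of different genotypes were treated as names only (r = -0.09 to 0.35). The highest of these r is like the highest for same-numbered hemispheres of a genotype (0.11 to 0.33). The labels do not say what a shared number means, and whether it marks a batch was not tested. Members called in WT were 4, 1 in voom, 2 on the 6 WT libraries alone and 1 to 5 without 1 library; in Lama4-/- they were 6 and 3 to 6, and in the other comparisons 0 to 0. The block changed no member call other than those given for Col1a2, Col6a1 and Col6a2.

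Signs that turned were all of changes not called. Over the fits with libraries left out, Col1a2 in WT ran from -0.095 to 0.054 and Col6a2 in Lama4-/- from -0.0095 to 0.143. In the interaction, Col1a1 ran from -0.148 to 0.123 in such fits (0.0625 without both libraries that stood apart) and was 0.0099 with RLE and 0.0096 in DESeq2, and Igf2 ran from -0.013 to 0.334. Contralaterally, Col5a1 ran from -0.113 to 0.0032, Col6a1 from -0.063 to 0.044, Dcn from -0.016 to 0.113 and Slc6a13 from -0.055 to 0.228. Ipsilaterally, Col1a2 ran from -0.017 to 0.166, Col3a1 from -0.111 to 0.321 (-0.0027 in voom and -0.012 with the replicate block) and Igf2 from -0.179 to 0.055. The cause was not tested. Of the fits with both libraries that stood apart left out, a choice made after the data were seen, the interaction called 1 gene. Depth limits Lum most, which had as few as 64 reads in a library.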
